A study of Mus musculus with 8 samples.

Results

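The genes described here are 36 genes of DNA break repair and immunoglobulin class switching, chosen by name, with earlier results of these data known. Of these, 32 had a probe set with their symbol alone on the array and were measured among 22180 genes in all. Fanca and Apex1 were listed only on probe sets that also carry another gene's symbol, and Dclre1c and Rbbp8 were not matched, so these 4 were not analysed here. A gene with more than 1 probe set was represented by its brightest one.

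The cells were B-1a cells, innate-like B cells that live mainly in body cavities and renew themselves there. They were sorted from peritoneal washes of mice aged 5 weeks. KO mice were PTIPflox/flox and WT mice were PTIP+/+, and both groups carried 1 copy of a Cre allele that is active in B lineage cells. Only KO thus carried loxP-flanked copies of Paxip1, the gene for PTIP, and cells of other lineages in a pool keep the floxed gene. The 29 KO and 22 WT mice were divided into 4 pools per genotype and each pool was run on 1 array. Values are the authors' log2 RMA values, and all differences are KO minus WT on that scale, where 1 is a doubling.

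Double-strand breaks in B cells arise by accident, in replication and, during class switching, on purpose, when deaminated bases in the switch regions of the heavy chain locus are turned into breaks. Sensor kinases and ubiquitin ligases mark the break. TP53BP1 and its partners shield the ends from resection and favour end joining, and BRCA1 and its partners open the ends for homologous recombination. PTIP takes part in this choice as a partner of phosphorylated TP53BP1, and separately belongs to the MLL3 and MLL4 histone H3K4 methyltransferase complexes, which act on transcription, including that of switch regions. The comparison asks which of these genes differ in transcript level between KO and WT pools.

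The targeted gene matched the labels in every pool. Paxip1 read 4.66, 4.48, 4.79 and 3.58 in the KO pools, given here and throughout in the order 1 to 4, against 6.87, 7.13, 7.16 and 7.03 in the WT pools. Its difference was -2.67 (SE 0.22, limma, adjusted p = 9.96e-05), and its other probe set differed by -3.24. The exact permutation p (two-sided, 70 groupings of the pools) was 0.0286, the lowest possible with 4 pools a group. Whether these probe sets lie inside the deleted part is not known here. Of the B cell markers, Ms4a1 stood at 11.1 in both groups, Cd79a at 10.8 in both, and Pax5 at 8.43 in KO and 8.45 in WT. Cd5, which sets B-1a cells apart among B cells, stood at 7.48 and 7.44 and was highest in KO pool 1 at 7.71. The part of T cells in the Cd5 value was not tested. Of the 11 measured B-1a and B cell markers 8 had negative differences and 2 fell: Itgam, a marker of body cavity B-1 cells, at -1.68 (SE 0.16, limma, adjusted p = 0.000191), and Zbtb32 at -1.11 (SE 0.15, limma, adjusted p = 0.00256). Spn, the CD43 marker of B-1 cells, missed the threshold at -0.52, with all KO pools lower. The mean of the 11 genes lay between 9.13 and 9.22 in KO pools and between 9.43 and 9.52 in WT pools, which did not overlap. Of 6 plasma cell markers 4 differences were positive and 2 negative. Jchain, the joining chain of secreted antibody, rose by 1.49 (SE 0.14, limma, adjusted p = 0.000197). The 2 negative ones, Xbp1 at -0.35 and Irf4 at -0.34, were lower in all KO pools and not called. The part of these markers in the members' values was not tested. T cell markers had higher means in KO in 16 of 17 measured genes, with 0 called by limma and 12 at an unadjusted p under 0.05. Their mean log2 value lay between 5.22 and 7.10 in KO pools and between 4.69 and 5.52 in WT pools, with KO pools 1 and 2 highest at 7.10 and 6.87. Of 13 NK cell markers 2 rose and all had higher means in KO, with pool means from 4.45 to 5.70 in KO and from 3.78 to 4.56 in WT. Of 12 macrophage and monocyte markers 7 differences were positive and 5 negative. The 1 called was Cd68, which fell by 0.56 (SE 0.12, limma, adjusted p = 0.0275). Adgre1 differed by -0.76 and Ccr2 by 1.07, neither of them called. The part of macrophages in the Itgam value was not tested. Arrays give no zero, so no marker can be called absent. In such bulk RNA, fewer cells of a type and less RNA per cell cannot be told apart.

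None of the 32 measured repair genes passed the test at an adjusted p under 0.05 in limma, against 797 of all 22180 genes (3.59%; 331 rose and 466 fell, or 412 and 374 after quantile normalization was repeated). At an unadjusted p under 0.05 there were 5 (15.6% of the measured members, beside 15.3% of all genes), 3 of them higher in KO and 2 lower. In 5 members the 4 KO values did not overlap the 4 WT values (15.6%, beside 10.5% of all genes). The share at the unadjusted p was thus that of the whole array. The share without overlap was above it but rests on 5 genes, and in 107 further measured repair genes it was 9.35%. Differences were positive in 16 members and negative in 16 (Rnf8 and Prkdc turned positive after repeated quantile normalization), and ran from -0.33 to 0.34 on the log2 scale, so that the largest was a 1.27-fold change. The median size of a difference was 0.091 in the members and 0.101 over all genes.

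The arrays set bounds on what could have been missed. The 95% interval of the difference lay within a 1.5-fold change in either direction for 30 of 32 members (93.8%, beside 88.7% of all genes), with Chek2 and Bard1 reaching further down. It lay within a 1.3-fold change for 24 members (75%, beside 59.1% of all genes), and within a 2-fold change for all 32. These intervals are for single genes and are not adjusted for their number. The smallest difference among all called genes was 0.31 in size, so no change below that size was called for any gene. Bard1, Brca1, Polq and Fancd2 lay below the median level of all genes, where RMA values flatten out and a fold is understated. Exo1, Ung, Chek1 and Palb2 lay close above it, at percentiles 53.5 to 58.5 of level. The bounds given for such dim genes carry the same limit.

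**Figure D1:**
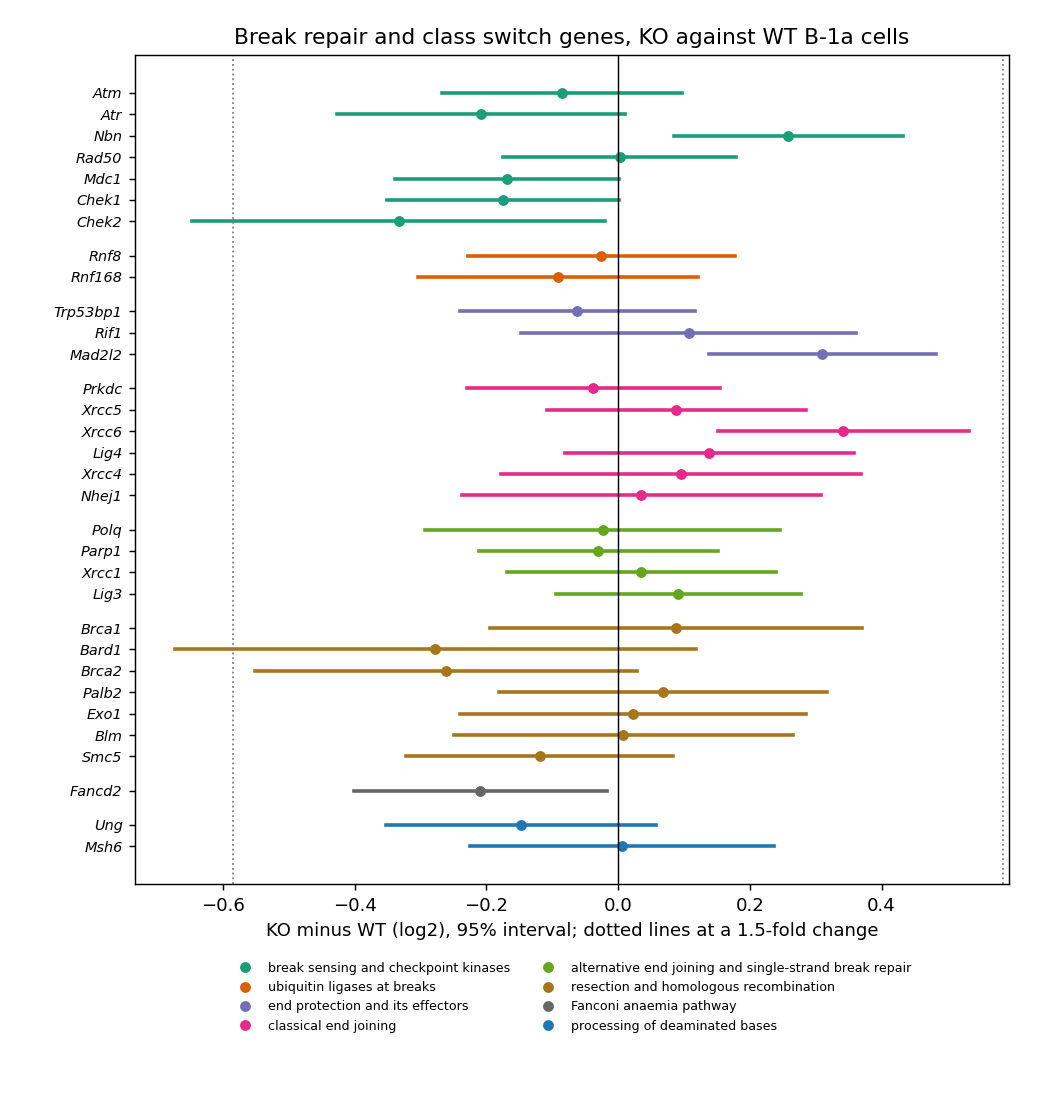
Difference between KO and WT (log2, x axis) for the 32 measured genes, grouped by role, with the 95% interval of limma from 4 pools per genotype. The points lie between -0.33 and 0.34, and 30 of the 32 intervals stay inside the dotted lines that mark a 1.5-fold change.

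Among the genes that shield broken ends, Mad2l2 came nearest to the threshold of all members. Mad2l2 encodes REV7, a shieldin subunit that acts downstream of TP53BP1 and also serves DNA polymerase zeta. It read 7.55, 7.52, 7.62 and 7.61 in KO and 7.36, 7.18, 7.30 and 7.22 in WT. All KO pools were above all WT pools, and the difference of 0.31 was nearly 4 times its SE of 0.078 (limma, adjusted p = 0.0570). The adjusted p ran from 0.0255 to 0.185 over 19 alternatives and was under 0.05 in 4 of them. Trp53bp1, the gene of PTIP's own partner at breaks, read 6.80, 6.88, 6.68 and 6.67 in KO and 6.77, 6.77, 6.84 and 6.88 in WT. The groups overlapped, with a difference of -0.062 (SE 0.081) and a 95% interval from -0.24 to 0.12. Over the alternatives it ran from -0.14, without KO pools 1 and 2, to -0.021, after repeated quantile normalization. Rif1, the TP53BP1 effector that blocks resection, differed by 0.11 (SE 0.12), and WT pool 2 at 5.54 was the lowest of its 8 values.

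Classical end joining seals breaks with little processing, and it carries most class switch joins. Differences were positive in 5 of its 6 members, or in all 6 after repeated quantile normalization, and none passed. Xrcc6, which encodes the Ku70 subunit that binds broken ends, read 6.33, 6.49, 6.63 and 6.38 in KO against 6.12, 6.09, 6.08 and 6.17 in WT. The KO pools were all higher and spread more widely (SD 0.13 against 0.039), and the difference was 0.34 (SE 0.087, limma, adjusted p = 0.0585, under 0.05 in 3 of 19 alternatives). Xrcc5, which encodes the other Ku subunit, differed by 0.088 (SE 0.089), with WT pool 4 at 7.65 above every KO pool. The difference between the changes of these partners was not tested. Ligase Lig4 differed by 0.14, its scaffold Xrcc4 by 0.095, and Nhej1, the XLF factor that aligns the ends, by 0.035. Prkdc, the DNA-dependent protein kinase that Ku recruits, differed by -0.038, or 0.0061 after repeated quantile normalization. Adjusted p for these 5 genes was between 0.578 and 0.942.

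Break sensors and checkpoint kinases differed in both directions, with 2 positive and 5 negative values and no call. Nbn, Rad50 and Mre11a encode the complex that first binds a break and activates ATM. Nbn read 6.40, 6.33, 6.30 and 6.34 in KO and 6.18, 5.97, 6.11 and 6.06 in WT, which did not overlap (difference 0.26, SE 0.079, limma, adjusted p = 0.121). Its partners differed by 0.0025 for Rad50 and 0.039 for Mre11a, which is not a member.

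Mdc1, the adaptor that spreads the damage mark along chromatin, was lower in all KO pools, at 6.75, 6.92, 6.87 and 6.85 against 6.96, 7.04, 6.98 and 7.08 in WT. Its difference was -0.17 (SE 0.077, limma, adjusted p = 0.331). Chek1, the kinase that restrains the cell cycle after replication stress, was also lower in all KO pools. It read 4.14, 4.32, 4.25 and 4.37 in KO against 4.47, 4.46, 4.42 and 4.44 in WT, a difference of -0.18 (SE 0.080, limma, adjusted p = 0.328). In both genes the gap between the groups was narrow, 0.042 for Mdc1 and 0.047 for Chek1.

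Chek2, the kinase that ATM activates, had the most negative difference of all members but overlapping groups. It read 4.62, 4.98, 4.52 and 4.21 in KO and 4.88, 4.80, 4.92 and 5.06 in WT, so that KO pool 2 lay above 3 of the 4 WT pools. The difference was -0.33 (SE 0.14, limma, adjusted p = 0.289). Without KO pools 1 and 2 it was -0.55, and without KO pool 4, which held the lowest value, it was -0.21. It was called in neither case (without KO pools 1 and 2 adjusted p = 0.0816, with a range from 0.0816 to 0.511 over its alternatives). Atr, the kinase that answers to single-stranded DNA, read 6.62 and 6.54 in KO pools 1 and 2 and 6.29 and 6.26 in KO pools 3 and 4, while WT pools lay between 6.54 and 6.68. Its difference was -0.21 (SE 0.099), and a second Atr probe set differed by -0.26. With T cell marker level as covariate the Atr difference was -0.39. Atm differed by -0.085 (SE 0.083). The ubiquitin ligases that act between MDC1 and TP53BP1 differed by -0.025 for Rnf8, or 0.025 after repeated quantile normalization, and by -0.091 for Rnf168.

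**Figure D2:**
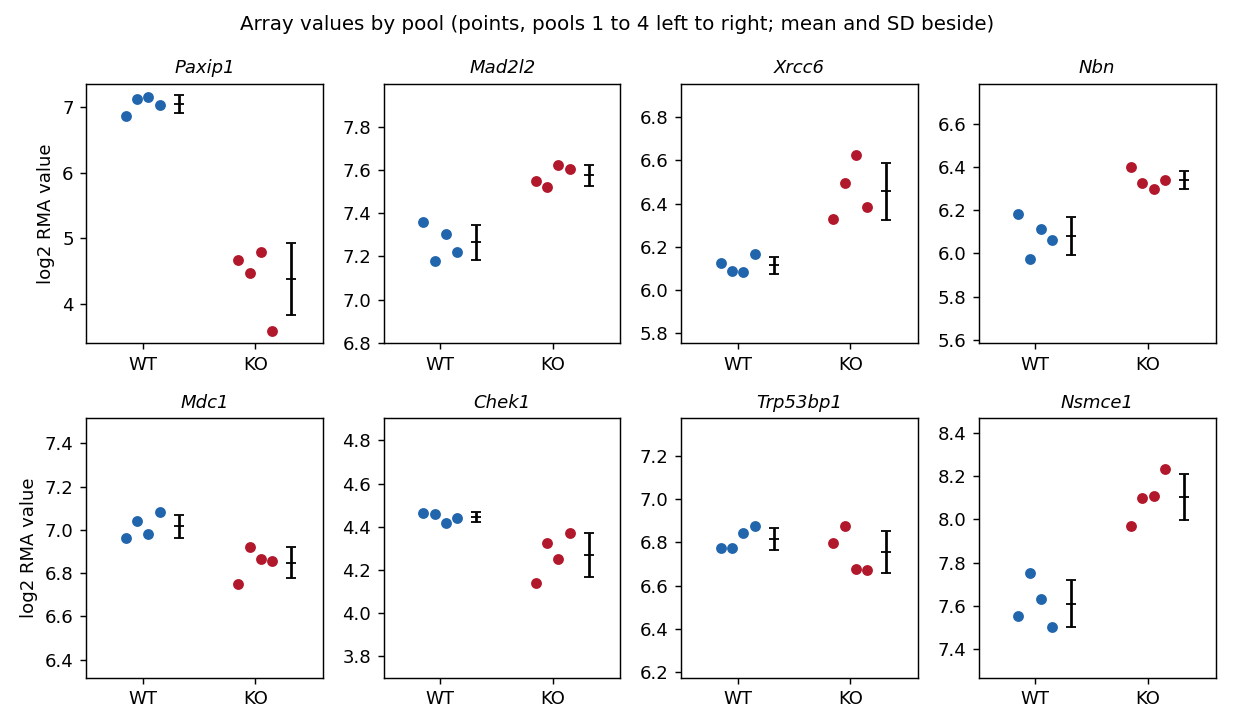
Log2 RMA value of each pool (y axis) for Paxip1, the 5 members whose groups did not overlap, Trp53bp1 and Nsmce1, with the mean and SD of 4 pools beside the points. Each panel spans 1.2 log2 units except that of Paxip1, which fell by 2.67; Trp53bp1 overlaps between groups, and Nsmce1 is the 1 gene called among 107 further repair genes.

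Genes of resection and homologous recombination had 4 positive and 3 negative differences, none called, and several spread widely among the KO pools. This pathway copies the sister chromatid and is used by dividing cells. Brca1, which counteracts TP53BP1 at broken ends, read 3.40, 3.65, 3.25 and 3.87 in KO and 3.52, 3.30, 3.53 and 3.48 in WT, a difference of 0.088 (SE 0.13). Bard1, the obligate partner of BRCA1, read 3.05, 3.59, 2.85 and 3.66 in KO and 3.50, 3.56, 3.84 and 3.36 in WT. KO pools 1 and 3 lay below every WT pool and KO pools 2 and 4 did not, which gave a difference of -0.28 with the largest SE of all members, 0.18. Brca2, a core factor of homologous recombination, was lowest in KO pool 3 at 4.57, and its other pools lay between 5.01 and 5.36 (difference -0.26, SE 0.13). Without KO pool 3 the differences were -0.13 for both Brca2 and Bard1.

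Palb2, which links BRCA1 to BRCA2, and Exo1, a resection nuclease, differed by 0.068 and 0.023. Both were highest in KO pool 4, at 4.78 and 4.41. The helicase Blm differed by 0.0082, and Smc5 of the SMC5/6 complex by -0.12. Fancd2, the clamp of the Fanconi anaemia pathway, read 3.58, 3.47, 3.48 and 3.67 in KO and 3.61, 3.81, 3.76 and 3.85 in WT. Only KO pool 4 and WT pool 1 overlapped, with a difference of -0.21 (SE 0.087, limma, adjusted p = 0.277).

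The SD over pools was larger in KO than in WT for 21 of 32 members (65.6%, beside 52.9% of all genes). Brca1, Palb2, Exo1 and Msh6, named after their values were seen, were highest in KO pool 4, while Chek2, Atr, Rnf8 and Trp53bp1 were lowest there. KO pool 4 was thus the highest of the 8 pools in 4 members and the lowest in 4. The counts were 12 and 1 for WT pool 4 and 7 and 7 for KO pool 3. Of the 32 members, 15 were above and 17 below the WT mean in KO pool 4. These values stood beside the mean of 24 replication and cycling genes, which was highest in that pool at 6.25 and lay between 5.61 and 5.98 in the other 7. Cyclin Ccnb2 was at 7.14 there and at most 5.66 elsewhere, and Ccna2 was at 7.25 and at most 6.19 elsewhere. The list itself did not separate the genotypes, with 0 of 24 genes called by limma, 1 at an unadjusted p under 0.05, and a median difference of 0.034. The part of cycling cells in these pool differences was not tested.

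**Figure D3:**
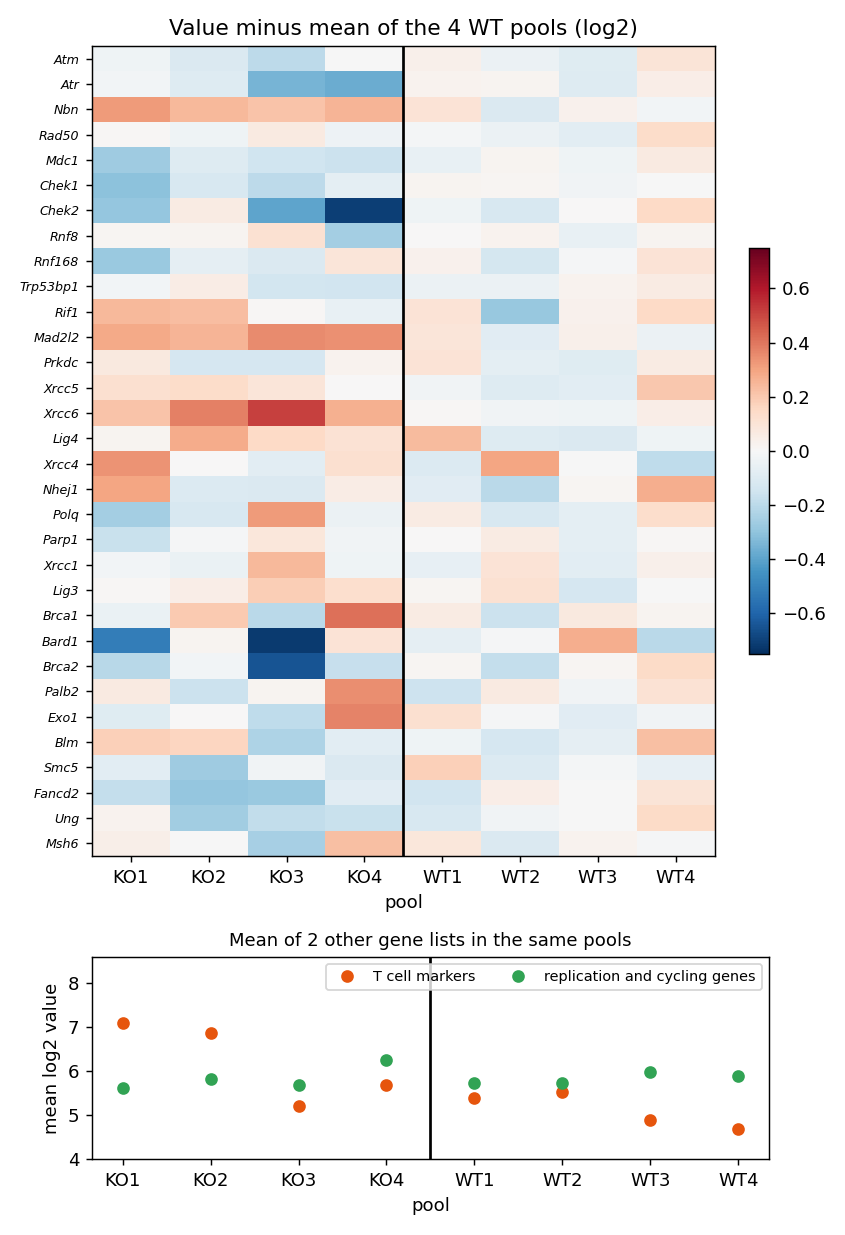
Upper panel, value of each pool minus the mean of the 4 WT pools (log2, colour) for the 32 measured genes; lower panel, mean log2 value of 17 T cell markers and of 24 replication and cycling genes in the same pools. Mad2l2, Xrcc6 and Nbn are above the WT mean in all KO pools, Bard1 and Brca2 are lowest in KO pool 3, and the cycling genes are highest in KO pool 4 at 6.25.

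In alternative end joining and single-strand break repair no difference exceeded 0.092 in size. Polq, the polymerase that joins ends by short homologies, differed by -0.023, Parp1, the sensor of single-strand breaks, by -0.030, and the scaffold Xrcc1 and ligase Lig3 by 0.035 and 0.092. Their adjusted p lay between 0.688 and 0.964. Polq turned to 0.23 with T cell marker level as covariate, where its adjusted p was 0.504. Of the genes that turn deaminated bases into breaks, Ung, the uracil glycosylase, read 4.20, 3.90, 3.98 and 4.00 in KO and 4.05, 4.14, 4.17 and 4.31 in WT. KO pool 1 was within the WT range and the other KO pools below it, for a difference of -0.15 (SE 0.093). Msh6, a mismatch sensor, differed by 0.0059 (SE 0.11) and was lowest in KO pool 3 at 6.75.

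T cell marker means were highest in KO pools 1 and 2 and overlapped between the genotypes. The members whose groups did not overlap were also fitted with that level as a covariate and without these pools. With T cell marker level as covariate the differences were 0.36 for Mad2l2, 0.43 for Xrcc6 and 0.23 for Nbn. Without KO pools 1 and 2 they were 0.35, 0.39 and 0.24. In the latter fit Mdc1 and Chek1 differed by -0.16 and -0.14. Each difference was at least 0.77 times as large as in the full set; none of the 32 members was called in either fit, and both fits have less power.

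Other genes of the same pathways gave few calls as well. Of 107 further measured repair genes 1 rose and 0 fell (0.935%, beside 3.59% of all genes), with 15 at an unadjusted p under 0.05 (14.0%, beside 15.3%) and a median difference of 0.013. In 10 of them the groups did not overlap (9.35%, beside 10.5%). The gene called was Nsmce1, a ubiquitin ligase subunit of the SMC5/6 complex, which holds DNA together for repair between sister chromatids. Nsmce1 read 7.97, 8.10, 8.11 and 8.23 in KO and 7.55, 7.75, 7.63 and 7.50 in WT, a difference of 0.49 (SE 0.090, limma, adjusted p = 0.0120). The groups did not overlap, and the rise was called in 18 of 19 alternatives. The exception was the T cell marker covariate, at 0.54 with an adjusted p of 0.0824 (0.00302 to 0.0824 over all 19).

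No other measured subunit of that complex that is named here was called. Smc6 read 10.3, 10.4, 10.5 and 10.3 in KO and 10.9, 10.5, 10.8 and 10.8 in WT, all KO pools lower, and missed the threshold at -0.40 (SE 0.10, limma, adjusted p = 0.0532, with a range from 0.0105 to 0.345 and under 0.05 in 4 of 19 alternatives, among them omission of WT pool 2). Smc5, its binding partner, differed by -0.12, and Nsmce2, a SUMO ligase subunit, by 0.19.

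**Figure D4:**
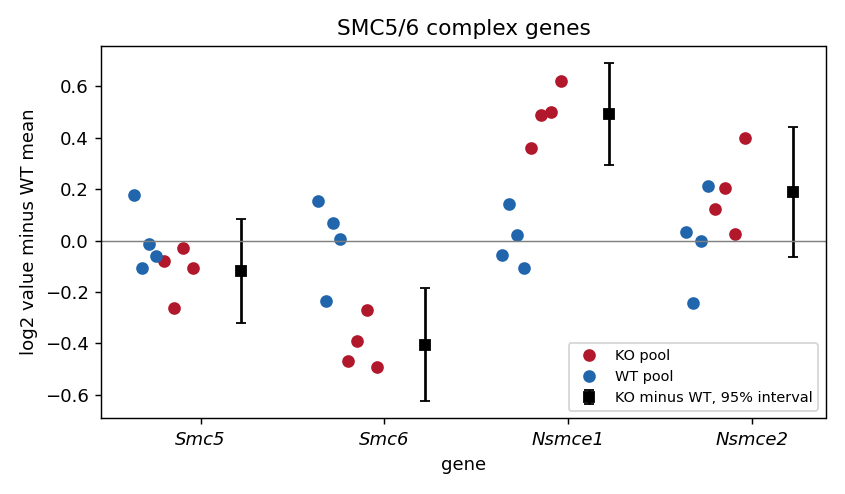
Log2 value of each pool minus the WT mean (y axis) for 4 genes of the SMC5/6 complex, with the KO minus WT difference and its 95% interval as black squares. Nsmce1 lies above WT in all KO pools, at 0.49 on average, Smc6 lies below at -0.40, and Smc5 and Nsmce2 overlap.

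In the list of end protection and shieldin genes limma called 0 of 8 (3 at an unadjusted p under 0.05), with Dynll1, a TP53BP1 binding partner, at -0.41, Asf1a, a histone chaperone, at 0.24 and Pagr1a, a partner of PTIP in the methyltransferase complexes, at -0.25. Of 13 class switch genes limma called 0 (1 unadjusted), with the nuclease subunit Ercc1 at 0.23. Next by p were Polh at 0.23, Rev1 at -0.21 and the uracil glycosylase Smug1 at -0.18. With T cell marker level as covariate Ercc1 was at 0.088 and Smug1 at -0.024. Of 9 end joining genes limma called 0 (1 unadjusted), with Dntt, the polymerase that adds untemplated bases, at 3.13 in KO and 2.66 in WT. Dntt was dim in both groups and missed the threshold (adjusted p = 0.0766), and was called with the replicate number as a block (0.0408). The range over its alternatives was 0.0408 to 0.235. Of 29 further recombination genes Nsmce1 alone was called (3 unadjusted). Limma called 0 of 14 Fanconi anaemia genes (2 unadjusted), 0 of 19 checkpoint genes (3 unadjusted) and 0 of 16 base excision and mismatch repair genes (2 unadjusted). Those with the smallest p were Usp1, the deubiquitinase of FANCD2, at 0.27, Rnf169, which competes with TP53BP1 for its chromatin mark, at 0.32, and the mismatch gene Msh3 at 0.42. Msh3 was called after repeated quantile normalization (adjusted p = 0.0499, with a range from 0.0499 to 0.316). Ighg3, a heavy chain constant region gene that class switching can select, fell by far more than any member or further repair gene, with a difference of -2.52 (SE 0.11, limma, adjusted p = 1.04e-06), or -1.53 as the mean of its 2 probe sets.

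Promoter windows were read to see what the members share in sequence. Of the 5 members whose groups did not overlap, the windows of Mad2l2, Xrcc6 and Mdc1 are shown. The window of Chek1 held no match and is not shown, and Nbn had no window. RefSeq (GRCm38.p6) gave windows for 26 of the 32 measured members, of which the 250 bases before the start were used. The median window of the members held 16.5 CpG dinucleotides and that of all genes 6, and 25 of the 28 member windows were above the median of all. CpG-rich starts are common among genes used in most cell types. 4 kinds of motif were searched on both strands: E2F sites (TTTCCCGC, TTTCGCGC, TTTGCCGC or TTTGGCGC), the NRF1 palindrome, the CCAAT box (CCAAT) and the GC box (GGGCGG). The matches are in capitals, in windows at chr4:148130670-148130919, plus strand, and chr4:148140240-148140489, plus strand (both starts of Mad2l2), chr15:82016119-82016368, plus strand and chr17:35841248-35841497, plus strand.
Mad2l2, first start: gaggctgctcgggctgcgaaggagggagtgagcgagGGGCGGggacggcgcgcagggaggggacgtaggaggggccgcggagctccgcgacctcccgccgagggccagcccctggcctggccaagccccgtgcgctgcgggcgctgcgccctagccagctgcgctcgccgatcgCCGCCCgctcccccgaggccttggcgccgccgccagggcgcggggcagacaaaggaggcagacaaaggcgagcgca
Mad2l2, second start: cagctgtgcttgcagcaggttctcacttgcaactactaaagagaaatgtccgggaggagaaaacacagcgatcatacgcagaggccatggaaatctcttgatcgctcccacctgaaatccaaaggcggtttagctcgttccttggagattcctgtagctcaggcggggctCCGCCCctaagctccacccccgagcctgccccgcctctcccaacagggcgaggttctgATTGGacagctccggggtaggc
Xrcc6: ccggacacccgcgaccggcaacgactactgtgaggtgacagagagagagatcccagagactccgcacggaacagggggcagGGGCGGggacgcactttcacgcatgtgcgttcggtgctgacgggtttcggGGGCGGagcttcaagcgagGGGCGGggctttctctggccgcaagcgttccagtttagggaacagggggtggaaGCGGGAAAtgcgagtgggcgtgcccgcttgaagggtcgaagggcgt
Mdc1: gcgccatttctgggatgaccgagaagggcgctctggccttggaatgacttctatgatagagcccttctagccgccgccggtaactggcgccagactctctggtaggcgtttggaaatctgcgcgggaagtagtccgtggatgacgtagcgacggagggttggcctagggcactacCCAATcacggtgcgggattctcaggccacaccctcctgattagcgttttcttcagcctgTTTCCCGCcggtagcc

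The GC box matches stand in both starts of Mad2l2 and in Xrcc6, and a CCAAT box, on the minus strand, near the second start of Mad2l2. Mdc1 holds a CCAAT box too. Xrcc6 and Mdc1 hold an E2F match each, and the window of Chek1 holds none of the 4 kinds. E2F factors drive genes of the S phase. E2F matches were found in 5 of 26 members (19.2%), beside 2.16% of all 27025 RefSeq genes with a window. Of these 5, Chek2, Bard1, Brca2 and Mdc1 differed by -0.33, -0.28, -0.26 and -0.17 and Xrcc6 by 0.34, none past the test. GC boxes were found in 16 of 26 members (61.5%, beside 35.4%), CCAAT boxes in 10 (38.5%, beside 37.5%) and the NRF1 site in 1 (3.85%, beside 0.877%). The windows of members and of all genes were not matched for CpG content. Member windows held more CpG, and the part of CpG content in these shares was not tested. A match is a description of letters and not a bound site.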

How the data were processed

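B-1a cells of 4 KO and 4 WT pools were measured on 8 Affymetrix arrays. The authors deposited 1 table of log2 values for 41345 probe sets. The authors used RMA and R 3.2.2, per the submitters' processing notes; the package and the summarisation level are not known here. Array medians lay between 3.68 and 3.74, and precision is limited by having 8 arrays. Of the 41345 probe sets, 16010 were not in the annotation table and 25335 were, 23521 with 1 gene symbol and 1814 with several (not named). Identifiers of 23328 matched RefSeq names (GRCm38.p6), which left 22180 genes. KO was compared with WT with limma 3.58.1 in R 4.3.3 (lmFit, eBayes, two-sided, Benjamini-Hochberg over all 22180 genes, adjusted p under 0.05); the fit was tested on simulated data. Errors are SDs of 4 pools or standard errors (SE). The labels call the pools biological replicates. Members and lists were chosen with earlier results of these data known. Named were members that passed (none did), those whose groups did not overlap, and Paxip1. Also named was the smallest p of each role and of each list of further repair genes (at most 4). Other members were given by role, and other genes were chosen after their values were seen. Alternatives changed the probe set, genes tested, scaling, prior, weights, a replicate block and each pool. Added after values were seen were a T cell marker covariate and omission of KO pools 1 and 2. Some items are not reported here.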

Additional observations from a re-analysis of the deposited data

Results flagged for a closer look

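Each group of 4 pools was checked for a pool far from the other 3, over 70 groups (35 genes in 2 genotypes), of which chance gives about 1 in 20. In 2 groups the gap exceeded Dixon's 95% critical value. Xrcc1 stood at 6.53 in KO pool 3 and between 6.23 and 6.26 in the other KO pools (0.911 of the range). Atr stood at 6.54 in WT pool 3 and between 6.66 and 6.68 in the other WT pools (0.831 of the range).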

How the results depend on the processing

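All 19 alternatives were run. No member was called in 14 of them. There were 2 called members (Mad2l2 and Xrcc6) with only genes above the median level tested and with repeated quantile normalization, 1 (Mad2l2) with a trended robust prior and with no variance moderation, and 1 (Xrcc6) with array weights. Leaving out any 1 pool gave 0. Of the further repair genes, 2 were called in the first 2 of these fits, with the trended robust prior, with array weights and with the replicate block, 1 to 2 without any 1 pool (2 without WT pool 2), and 0 with the T cell marker covariate. With only genes above the median level fewer genes were tested; otherwise the cause was not tested. The replicate number as a block left 0 members called. Deviations of pools with the same number correlated at 0.107, 0.045, 0.045 and 0.036. A pool correlated best with its own number in 3 of 8 cases. T cell marker means were higher in pools 1 and 2 than in pools 3 and 4 in both genotypes. They were 7.10 and 6.87 against 5.22 and 5.69 in KO, and 5.38 and 5.52 against 4.88 and 4.69 in WT. The labels name no batch, and whether pools of the same number were handled together was not tested.

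The Paxip1 difference ran from -2.95 to -2.40. Of the 32 members 17 kept their direction in every alternative run for them (for Bard1 and Fancd2, 18 of the 19, since they are dim), and 15 with differences near 0 did not, none of them called. Without 1 pool the ranges were -0.024 to 0.048 for Rad50, -0.072 to 0.050 for Rnf8, -0.051 to 0.13 for Nhej1, -0.14 to 0.054 for Polq, -0.067 to 0.016 for Parp1, -0.035 to 0.070 for Xrcc1, -0.020 to 0.18 for Brca1, -0.024 to 0.14 for Palb2, -0.094 to 0.095 for Exo1, -0.049 to 0.089 for Blm, -0.068 to 0.091 for Msh6 and, outside the members, -0.023 to 0.14 for Mre11a. Repeated quantile normalization gave 0.025 for Rnf8 and 0.0061 for Prkdc. The T cell marker covariate gave 0.026 for Rnf168, -0.089 for Xrcc4, 0.23 for Polq, 0.039 for Parp1, -0.14 for Blm, -0.048 for Msh6 and -0.027 for Mre11a. Without KO pools 1 and 2 the values were -0.023 for Rif1, -0.025 for Nhej1, 0.14 for Polq, 0.029 for Parp1, -0.16 for Blm, -0.010 for Msh6 and -0.031 for Mre11a. Calls over all genes numbered 278 to 1017 against 797, the lowest with the T cell marker covariate.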
